A study of Mus musculus with 36 samples.

Results

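Lung messenger RNA was compared between mice given large (L) and mice given small (S) sheets of graphene oxide, 7 days after a dose of 50 μg into the nose. The libraries were chosen by their titles, L day 7 replicates 1 to 3 and S day 7 replicates 1 to 3, which are 6 of the 36 libraries of the series, and no measured value entered the choice. The mice were wild type C57BL/6 females, 10 weeks old at day 7, and both groups received 50 μL of sheets suspended in 5% dextrose under isoflurane anaesthesia. Graphene oxide is an oxidised, water-dispersible form of the carbon sheet graphene, and the study asked whether the lateral size of the sheets alters the response of the lung. The other groups drawn on here are mice of the same strain, sex and age given ultrasmall sheets (US, 50 μg) or the 5% dextrose carrier alone (D, 0 μg) at day 7, and L and S mice at day 1 (9 weeks old) and day 28 (13 weeks old). The labels give 4 to 5 animals per group and 3 libraries per group (n = 3 throughout), and the labels do not say which animal a library came from, so the tests measure the spread among libraries, which may be technical. RNA came from small pieces of every lobe after the large airways had been cut away, so each library mixes all cell types of the distal lung. The hour of the day at which lungs were taken is not given in the sources used here.

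Inhaled particles that reach the air sacs are taken up by macrophages, which can answer with chemokines that recruit neutrophils and monocytes, and with proteases and lipid-handling proteins when the load persists. Most lung cells also run a circadian clock, a feedback loop in which the activators Arntl (Bmal1), Clock and Npas2 switch on their own repressors (the Per and Cry genes and the Rev-erb genes Nr1d1 and Nr1d2) and output regulators such as Dbp, Tef and Hlf. The activators and the outputs peak at opposite times of day.

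Counts per library were 19727986, 19039900 and 18685818 in L lungs, against 19497516, 80566751 and 22177533 in S lungs. The depth of S replicate 2 was 4.13 times as large as the median of the other 35 libraries. Levels are given as CPM, the usual scaling of a gene's reads to the library's total. Markers of the labelled tissue were abundant in all 6. Sftpc of alveolar type 2 cells stood at 27688, 23396 and 17193 CPM in L lungs and 20482, 20896 and 24521 CPM in S lungs, and Ager of alveolar type 1 cells at 3055, 3418 and 2397 CPM in L lungs and 2436, 2909 and 3102 CPM in S lungs. Myh6, a myosin of heart muscle, which also lines the pulmonary veins, stood at 17.8, 21.4 and 28.1 CPM in L lungs and 4.21, 11.5 and 43.6 CPM in S lungs. Those groups overlapped, with the lowest and the highest library both among S lungs. The first principal component of log2(CPM + 0.5) of the 6 libraries (46.0% of the variance) spread the L replicates from 38.5 for replicate 1 to -22.6 for replicate 3 and did not separate the groups. The second (20.9%) placed L libraries between 2.72 and 15.9 and S libraries between -22.5 and 0.41.

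Of 16903 genes tested with edgeR's quasi-likelihood test over all 36 libraries, 26 passed a Benjamini-Hochberg adjusted p of 0.05 (0.154%), 13 higher and 13 lower in L lungs (0.0769% each way), beside 1131 genes at an unadjusted p under 0.05. The median log2 fold change of all genes was 0.01. The 3 L values of every called gene lay on 1 side of its 3 S values, which was also so for 4.66% of all genes tested with L above S and 6.48% with L below S. With 1 library left out the count was 13 (L replicate 2), 14 (L replicate 1, S replicate 2 or S replicate 3), 19 (S replicate 1) or 26 (L replicate 3). Clock genes made up 7 of the 26 calls, from 20 clock genes tested. The others included the macrophage elastase Mmp12, the chemokine Cxcl5 and the immediate early gene Fos. Of 42 gene lists covering cell types, inflammation, stress and metabolism, 5 held a called gene and 37 held none. With 0.154% of all genes called, a short list with 0 calls is not thereby shown to be unchanged.

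**Figure D1:**
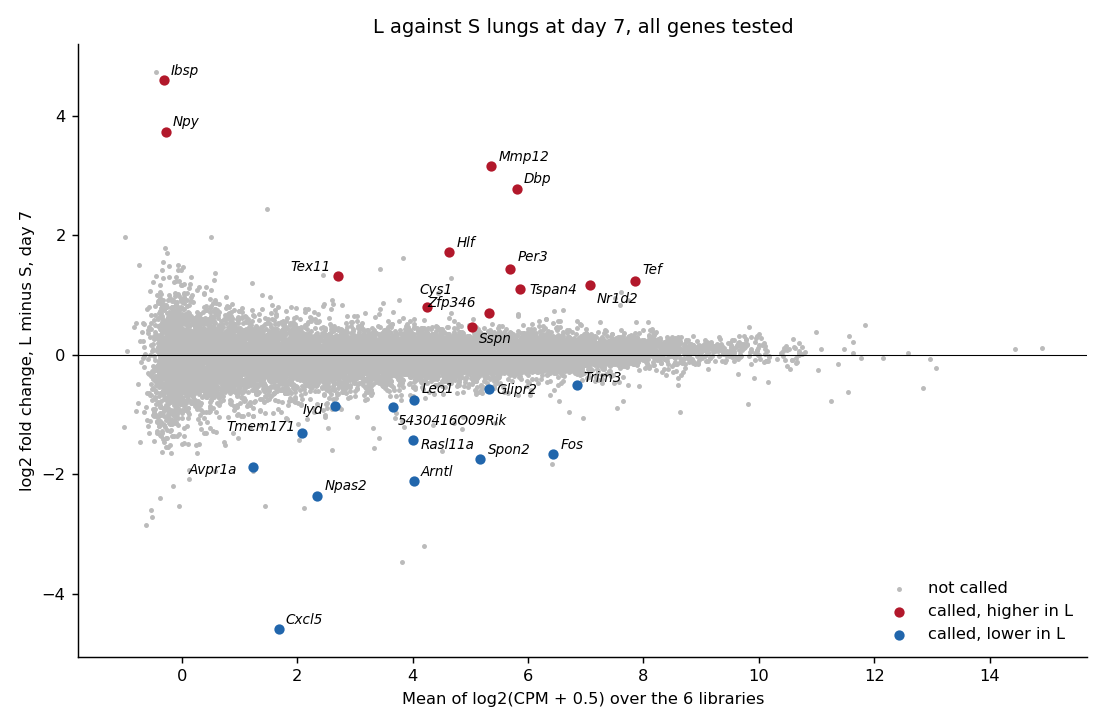
Each point is 1 of the 16903 genes tested, with the mean of log2(CPM + 0.5) over the 6 L and S libraries of day 7 on the x axis and the log2 fold change, L minus S, on the y axis. Red points are the 13 genes called higher in L lungs and blue points the 13 called lower. Ibsp, Npy, Mmp12 and Dbp lie highest and Cxcl5, Npas2 and Arntl lowest among the called genes.

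Clock genes were called in both directions. Arntl and Npas2, of the activators, fell in L against S lungs, and Dbp, Tef, Hlf, Per3 and Nr1d2, of the repressors and outputs, rose. Of 6 genes on the clock activator list, 0 rose and 2 fell (0.0769% of all genes in each direction), with a median log2 fold change of -0.87. That list also holds Nfil3, a repressor that peaks with the activators, at -1.40, which enters the median. Of 14 clock repressors and outputs, 5 rose and 0 fell, with a median of 0.81. The groups did not overlap for 11 of those 14 with L above S and for 1, Cry1, with L below S. On the activator list of 6 they did not overlap for 1, Rora, with L above S and for 4, Nfil3 among them, with L below S. Among all genes tested the shares were 4.66% above and 6.48% below. Without S replicate 3 the calls among those 14 were 3, since Dbp and Nr1d2 did not pass, and without S replicate 2 they were 4, since Dbp did not.

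The promoters of 4 called genes that hold short sequences through which clock proteins are known to act are shown. Tspan4 also holds such a match, an E-box 51 bases before the start, and its promoter is not printed. The E-box CACGTG is bound by Arntl with Clock or Npas2, the D-box TTATGNAA by Dbp, Tef, Hlf and Nfil3, and the element ANTAGGTCA by the Rev-erb receptors and Rora, and each was searched on both strands. No match overlapped another. RefSeq windows from 250 bases before to 50 after a transcription start (GRCm38.p6) were matched for 21 of the 26 called genes, 20 by symbol and 1 by gene ID. The E-box stands in 7.15% of all 32851 windows (8.09% of all genes with a window) and, among called genes, in windows of Tef and Tspan4, 2 of the 21. The D-box stands in 3.38% of windows (3.99% of genes) and, for 1 of the 21, in that of Per3, at 205 and 158 bases before the start. The receptor element stands in 0.661% of windows (0.707% of genes) and, for 2 of the 21, in those of Arntl, 28 bases after the start, and Leo1, 65 bases before it. A match describes letters only, and binding was not measured. The sequences run 5′ to 3′ on the gene's strand, with matches in capitals, and give the 250 bases before the start of Per3 (chr4:151044666-151044915, reverse strand), Tef (chr15:81811164-81811413, forward strand) and Leo1 (chr9:75441274-75441523, forward strand), and 30 bases around the Arntl match (chr7:113207529-113207558, forward strand).
Per3: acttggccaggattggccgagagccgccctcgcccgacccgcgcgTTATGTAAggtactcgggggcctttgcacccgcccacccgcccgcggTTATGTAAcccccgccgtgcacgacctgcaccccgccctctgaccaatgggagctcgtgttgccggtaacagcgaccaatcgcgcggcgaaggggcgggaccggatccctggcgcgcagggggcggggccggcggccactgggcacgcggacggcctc
Tef: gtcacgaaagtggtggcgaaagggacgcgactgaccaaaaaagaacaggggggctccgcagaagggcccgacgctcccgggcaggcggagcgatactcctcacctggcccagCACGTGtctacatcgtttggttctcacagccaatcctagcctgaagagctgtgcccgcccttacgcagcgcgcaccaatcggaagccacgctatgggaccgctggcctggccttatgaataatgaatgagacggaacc
Leo1: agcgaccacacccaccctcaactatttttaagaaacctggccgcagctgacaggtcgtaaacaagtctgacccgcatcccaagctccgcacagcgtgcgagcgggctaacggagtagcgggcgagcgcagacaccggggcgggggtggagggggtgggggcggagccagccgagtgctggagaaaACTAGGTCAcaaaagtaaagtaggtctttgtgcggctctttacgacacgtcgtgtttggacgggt
Arntl: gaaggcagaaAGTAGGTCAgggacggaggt

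Of the activators, Arntl (ENSMUSG00000055116, chr7:113207465-113314122 in GRCm38, the whole gene with its exons and introns), the obligate partner in the activating complex, had 6.03, 6.83 and 9.69 CPM in L lungs, against 29.1, 33.3 and 37.2 CPM in S lungs. It fell 4.35-fold (log2 fold change -2.12 ± 0.29, SE, adjusted p = 0.000174), with a wide gap between the groups. Npas2 (chr1:39193731-39363236), which can take the place of Clock in that complex, had 1.82, 1.79 and 2.25 CPM in L lungs, against 9.23, 10.6 and 10.9 CPM in S lungs, and fell 5.13-fold (-2.36 ± 0.32, adjusted p = 0.000174). The lowest S library stood far above the highest L library. Clock itself had 57.2, 65.5 and 75.7 CPM in L lungs and 95.9, 80.4 and 80.7 CPM in S lungs and was not called (-0.34 ± 0.17, adjusted p = 0.741). Nfil3, a repressor of D-box genes that peaks with the activators, had 5.53, 5.51 and 7.81 CPM in L lungs and 12.9, 19.3 and 17.99 CPM in S lungs (-1.40 ± 0.35, adjusted p = 0.142). Rora, a nuclear receptor that activates Arntl, was not called (log2 fold change 0.36 ± 0.14).

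The PAR bZIP outputs, transcription factors that carry clock time to detoxification and metabolic genes, all rose in L against S lungs. Dbp (ENSMUSG00000059824, chr7:45705088-45710155) had 168, 142 and 126.03 CPM in L lungs, against 24.4, 25.2 and 15.1 CPM in S lungs, and rose 6.89-fold (2.78 ± 0.51, adjusted p = 0.00738). Tef (chr15:81802421-81826861) had 317, 373 and 359 CPM in L lungs, against 161, 149.8 and 145 CPM in S lungs (2.35-fold, 1.23 ± 0.18, adjusted p = 0.000364). Hlf (chr11:90336536-90390895) had 38.5, 47.2 and 46.7 CPM in L lungs, against 12.5, 15.6 and 12.6 CPM in S lungs (3.29-fold, 1.72 ± 0.19, adjusted p = 6.66e-06), the smallest adjusted p of all genes. The lowest L library of each stood above the highest S library by more than the spread within either group. With S replicate 2 or S replicate 3 left out Dbp was not called (adjusted p up to 0.119). Dbp overlaps Sphk2 on the opposite strand and the strand setting of the counting is not given in the sources used here. Their reads may therefore be mixed. Sphk2 itself had a log2 fold change of -0.30 (adjusted p = 0.804).

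Among the repressors, Per3 (chr4:151003652-151044665), a period protein, had 68.2, 84.1 and 100.7 CPM in L lungs, against 34.00, 32.7 and 27.9 CPM in S lungs, and rose 2.72-fold (1.44 ± 0.21, adjusted p = 0.000484). Nr1d2 (chr14:18204054-18239127), the receptor Rev-erb beta that represses Arntl, had 185, 197 and 217 CPM in L lungs, against 90.9, 95.8 and 83.9 CPM in S lungs, and rose 2.26-fold (1.17 ± 0.21, adjusted p = 0.00494). Without S replicate 3 the adjusted p of Nr1d2 was 0.0555. Per3 overlaps Camta1 on the same strand, so some of its reads may belong there. Per2, another period protein, had 29.5, 43.6 and 43.3 CPM in L lungs and 16.8, 17.7 and 14.2 CPM in S lungs and did not pass (1.28 ± 0.33, adjusted p = 0.172), although the groups did not overlap. Nr1d1 had 222, 303 and 254 CPM in L lungs and 110.8, 191 and 141 CPM in S lungs (0.84 ± 0.35, adjusted p = 0.669). Bhlhe40 and Bhlhe41, the Dec repressors, had log2 fold changes of 0.60 ± 0.16 and 0.71 ± 0.19 (adjusted p = 0.211 for both). Per1, which also answers acute stress hormones, overlapped between groups, at 30.7, 111.8 and 93.9 CPM in L lungs and 28.3, 80.9 and 42.3 CPM in S lungs. Cry1, a cryptochrome, had 11.5, 12.7 and 13.8 CPM in L lungs and 16.5, 15.2 and 15.96 CPM in S lungs, so that every L library lay below every S library (-0.30 ± 0.19, adjusted p = 0.807). Cry2 had 65.1, 87.2 and 75.9 CPM in L lungs and 54.1, 61.9 and 56.5 CPM in S lungs, without overlap and on the other side (0.43 ± 0.16, adjusted p = 0.608). The output Usp2, a ubiquitin protease, had 15.2, 12.4 and 12.8 CPM in L lungs and 6.67, 8.55 and 8.88 CPM in S lungs (0.77 ± 0.28, adjusted p = 0.557), and Ciart, a repressor, overlapped.

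**Figure D2:**
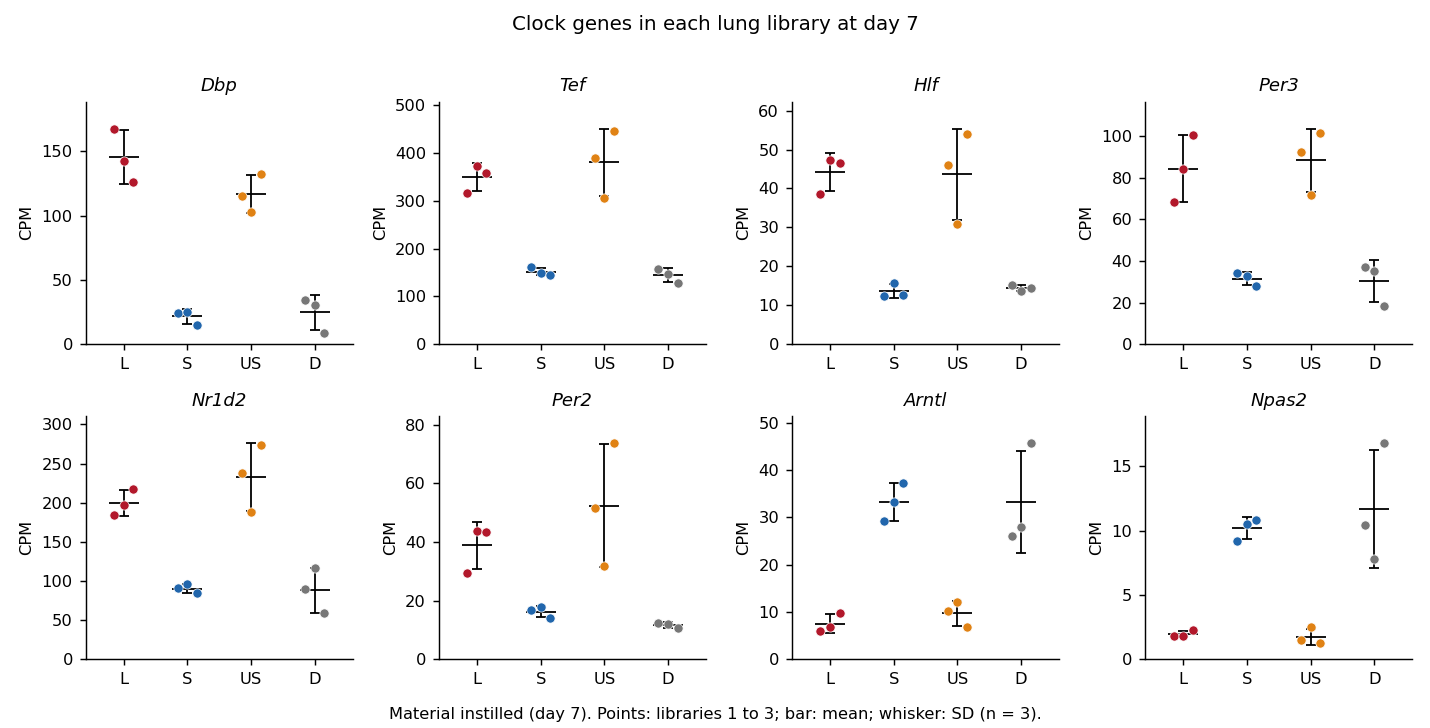
CPM of 8 clock genes in every library of day 7, with L, S, US and D on the x axis, points for the 3 libraries of each group, a bar for the mean and whiskers for the SD. For Dbp, Tef, Hlf, Per3 and Nr1d2 the L libraries stand above the S libraries, for Arntl and Npas2 below them, and the US libraries lie near L and the D libraries near S.

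US and D lungs of day 7 share no library with L and S lungs, and clock genes were called between them in the same directions. US minus D gave 353 called genes (2.09%, 153 higher and 200 lower). For Dbp, US lungs had 114.9, 102.6 and 131.9 CPM, against 34.3, 30.8 and 8.90 CPM in D lungs. Arntl had 10.2, 12.1 and 6.71 CPM in US lungs, against 26.1, 27.9 and 45.6 CPM in D lungs. Npas2 had 1.51, 2.46 and 1.26 CPM in US lungs, against 10.5, 7.80 and 16.8 CPM in D lungs. For these 3 genes the L values lay near the US values and the S values near the D values. L, S and US lungs had received sheets, and D lungs the carrier alone. L against US and S against D were not tested here. Of the 26 genes called in L against S, 17 were called the same way in US against D, which is 65.4% of the L against S calls and 4.82% of the US against D calls, and 0 were called the opposite way. Of the 26, 25 had the same sign, and the share of all genes with the same sign was not counted. Log2 fold changes in US minus D were 1.58 ± 0.19 for Hlf, 1.38 ± 0.18 for Tef, 1.52 ± 0.21 for Per3 and 1.38 ± 0.21 for Nr1d2, all called. Per2, not called in L against S, rose in US against D (2.15 ± 0.34, adjusted p = 0.00108). Mmp12 (0.19 ± 0.49), Cxcl5 (-0.19 ± 0.94) and Fos (0.23 ± 0.29) were not called in US against D, with adjusted p of 0.835, 0.916 and 0.652. Whether L minus S differed from US minus D for these genes was not tested. Of the 14 clock repressors and outputs 10 rose and 0 fell in US against D (0.905% of all genes were called higher). Of the 6 genes on the activator list, Nfil3 included, 0 rose and 2 fell (1.18% called lower).

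**Figure D3:**
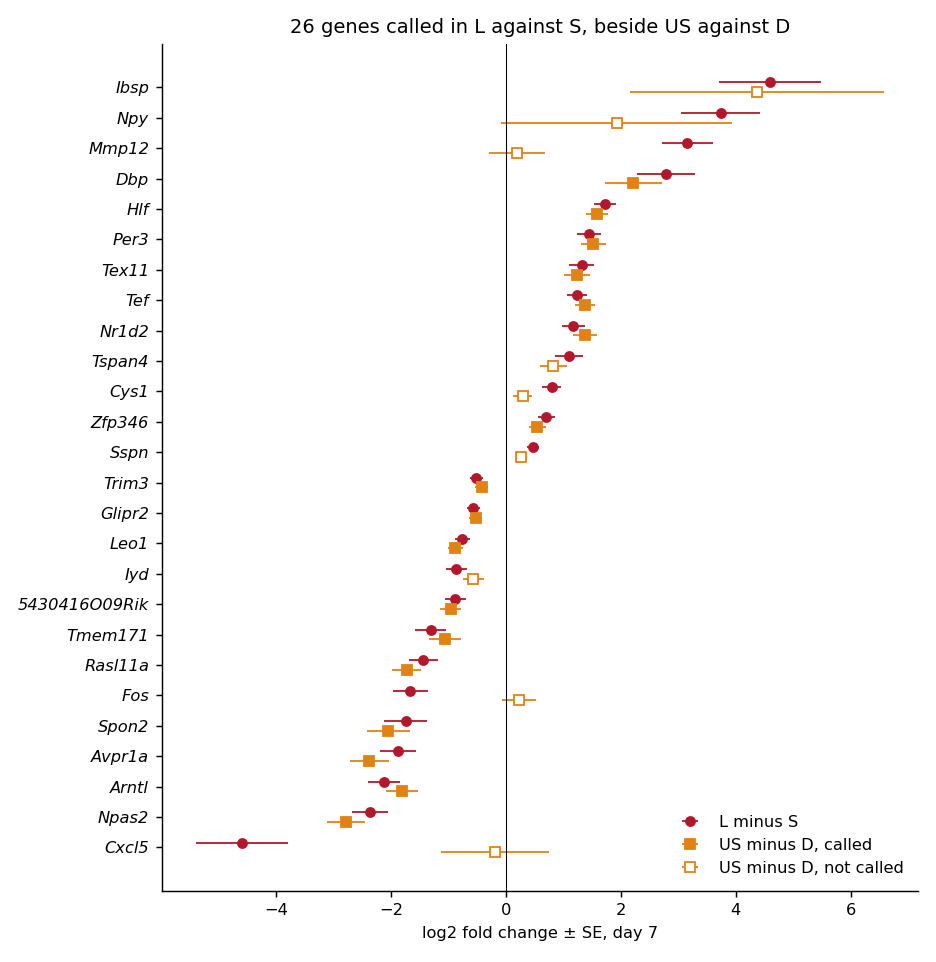
Log2 fold change ± SE at day 7 on the x axis for the 26 genes called in L minus S (red circles), with US minus D beside it (orange squares, filled where called). The 2 comparisons share no library. The 17 genes called in both lie on the same side of 0, while Mmp12, Cxcl5 and Fos sit near 0 in US minus D.

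Genes induced by glucocorticoids, adrenal hormones that also follow the time of day, were looked at beside the clock genes. Of 18 tested, 0 rose and 0 fell, with a median log2 fold change of 0.19, and the groups did not overlap for 6 with L above S and 2 with L below S, beside 4.66% and 6.48% of all genes tested. Log2 fold changes were above 0 for 10 of the 18 and below 0 for 8. Tsc22d3 and Zbtb16, given next, are on the higher side, and no gene of the lower side is shown. Tsc22d3, a mediator of glucocorticoid action, had 222, 266 and 269.6 CPM in L lungs and 112.1, 160.4 and 123.95 CPM in S lungs (0.96 ± 0.25, adjusted p = 0.176). Zbtb16, which is strongly induced by these hormones, had 15.6, 27.7 and 35.4 CPM in L lungs and 4.77, 13.1 and 6.94 CPM in S lungs (1.62 ± 0.73, adjusted p = 0.707). Neither gene overlapped between the groups, and Zbtb16 varied widely within them. The part that the hour of sampling or hormone levels had in the clock difference was not tested.

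Mmp12 (ENSMUSG00000049723, chr9:7344381-7369499), the elastase that macrophages secrete and that degrades elastic fibres of the lung, was the called macrophage gene. It had 211, 54.8 and 121.8 CPM in L lungs, against 14.1, 11.2 and 19.7 CPM in S lungs, 5.08, 5.49 and 8.21 CPM in US lungs and 4.05, 4.84 and 7.28 CPM in D lungs. It rose 8.92-fold in L over S lungs (3.16 ± 0.44, adjusted p = 0.000303), at 129.1 ± 78.1 CPM in L lungs and 15.03 ± 4.33 CPM in S lungs (SD). The 3 L libraries differed widely among themselves, and all stood above every other library of that day.

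Other genes of particle-laden, lipid-filled macrophages did not pass. Of 20 macrophage elastase and lipid-associated macrophage genes, 1 rose and 0 fell, with a median of 0.07 (-0.15 without L replicate 1), and the groups did not overlap for 1 with L above S and for 0 with L below S (4.66% and 6.48% of all genes tested). Gpnmb, a lysosome-linked glycoprotein, had 218, 78.6 and 143 CPM in L lungs and 116.99, 64.4 and 124.2 CPM in S lungs (0.57 ± 0.43, adjusted p = 0.824), with 31.9, 29.2 and 66.7 CPM in US lungs and 17.8, 19.8 and 25.04 CPM in D lungs. Trem2, a lipid-sensing receptor, had 36.5, 12.2 and 16.4 CPM in L lungs and 19.4, 13.3 and 22.8 CPM in S lungs (0.29 ± 0.32, adjusted p = 0.881), with 5.68, 6.64 and 7.53 CPM in US lungs and 6.02, 5.22 and 5.06 CPM in D lungs. For both genes the L and S libraries overlapped, and all 6 stood above all 3 D libraries. Spp1, osteopontin, had 554, 136.3 and 223 CPM in L lungs and 137, 122.1 and 198 CPM in S lungs (1.05 ± 0.47, adjusted p = 0.707). L replicate 1 was the highest of the 6 libraries for Mmp12, Gpnmb, Trem2 and Spp1, and it is also the library at the end of the first principal component. Without it Mmp12 was still called, and the log2 fold change of Trem2 was -0.36.

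General macrophage markers did not separate the groups. The summed CPM of 16 resident alveolar macrophage genes was 2264 to 3062 in L lungs and 2298 to 3233 in S lungs, with 0 members called and a median of -0.01. That of 15 monocyte and interstitial macrophage genes was 1839 to 2394 in L lungs and 1733 to 2429.6 in S lungs, with 0 called and a median of -0.02. Of all genes tested, 0.0769% were called in each direction. In tissue RNA, fewer cells of a type and less RNA per cell cannot be told apart, and the same holds for more of either.

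A pair of genes of low abundance rose with Mmp12. Npy, which encodes neuropeptide Y, had 31, 5 and 12 reads in L lungs, against 1, 4 and 2 reads in S lungs (3.73 ± 0.69, adjusted p = 0.0238). In CPM these were 1.57, 0.263 and 0.642 in L lungs and 0.0513, 0.0496 and 0.0902 in S lungs, S replicate 2 being the deepest library. Ibsp, which encodes bone sialoprotein, a mineral-binding matrix protein, had 48, 6 and 6 reads in L lungs, against 0, 5 and 0 reads in S lungs (4.60 ± 0.89, adjusted p = 0.0342). In CPM these were 2.43, 0.315 and 0.321 in L lungs and 0, 0.0621 and 0 in S lungs. With S replicate 2 thinned to the median depth, neither Npy nor Ibsp was called. L replicate 1 held most of the reads of both, and with L replicate 1 or any 1 of the 3 S libraries left out neither was called (adjusted p up to 0.335 for Npy and 0.58 for Ibsp). Both averaged under 1 CPM over the 6 libraries, so the size of their fitted fold changes is uncertain.

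**Figure D4:**
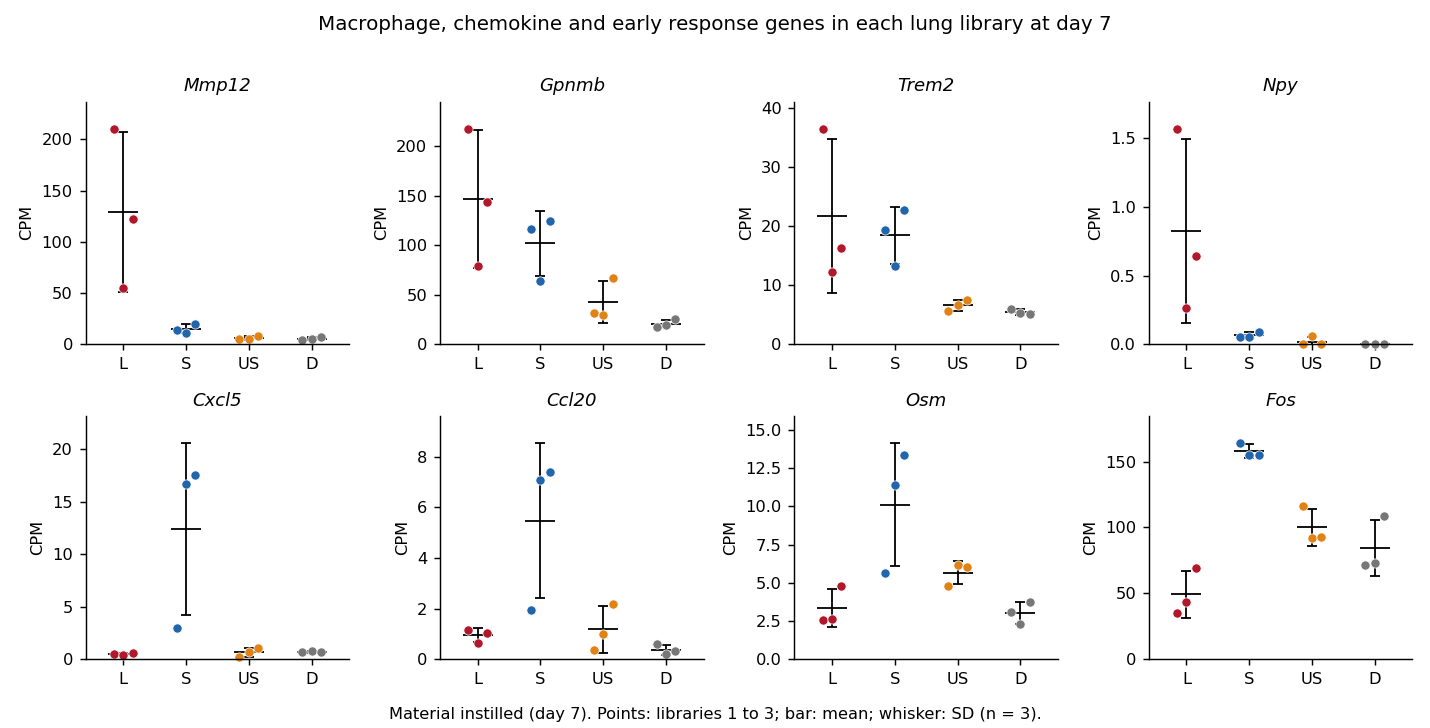
CPM of 8 genes in every library of day 7, with L, S, US and D on the x axis, points for the 3 libraries of each group, a bar for the mean and whiskers for the SD. Mmp12 and Npy are highest in L libraries, and for Mmp12 the S libraries also lie above the US and D libraries. Gpnmb and Trem2 overlap between L and S, and Cxcl5, Ccl20, Osm and Fos are higher in S than in L libraries, without a call for Ccl20 and Osm.

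Cxcl5 (ENSMUSG00000029371, chr5:90759360-90761624), an epithelial chemokine that attracts neutrophils through Cxcr2, fell in L against S lungs. It had 0.507, 0.420 and 0.589 CPM in L lungs, against 2.97, 16.7 and 17.5 CPM in S lungs, 0.183, 0.629 and 1.07 CPM in US lungs and 0.637, 0.807 and 0.658 CPM in D lungs. It was 24.1-fold lower in L lungs (-4.59 ± 0.80, adjusted p = 0.00441). The L libraries stood near the D libraries, while S replicates 2 and 3 stood far above them and S replicate 1 in between. Without L replicate 1 or 2 the call was lost (adjusted p up to 0.0655).

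Of 10 neutrophil-attracting CXC chemokines and receptors tested, 0 rose and 1 fell, with a median of -0.46, and the groups did not overlap for 2 with L below S (6.48% of all genes tested). Cxcl1, a chemokine of the same class, had 0.659, 0.578 and 0.856 CPM in L lungs and 0.974, 1.07 and 1.62 CPM in S lungs (-0.76 ± 0.60, adjusted p = 0.831). Ccl20, which attracts cells bearing Ccr6, had 1.17, 0.630 and 1.02 CPM in L lungs and 1.95, 7.09 and 7.39 CPM in S lungs (-2.53 ± 0.70, adjusted p = 0.26). As for Cxcl5, S replicate 1 was the S library nearest to the L libraries, and the Ccl20 groups did not overlap. Of 14 inflammatory CC chemokines 0 rose and 0 fell (median -0.05). The groups did not overlap for 1 of them with L above S and 2 with L below S, beside 4.66% and 6.48% of all genes tested.

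Of the inflammatory cytokines of macrophages, Tnf, Il1b and Osm were not called. Tnf had 0.912, 0.735 and 0.910 CPM in L lungs and 1.28, 2.74 and 2.34 CPM in S lungs (-1.32 ± 0.41, adjusted p = 0.377). Il1b, interleukin 1 beta, had 12.3, 25.8 and 25.5 CPM in L lungs and 26.3, 60.2 and 45.1 CPM in S lungs (-1.04 ± 0.34, adjusted p = 0.426). Osm, a cytokine of the interleukin 6 family, had 2.59, 2.63 and 4.76 CPM in L lungs and 5.64, 11.4 and 13.3 CPM in S lungs (-1.60 ± 0.35, adjusted p = 0.0609). For each of these 3 every L library lay below every S library, and Osm was picked after its values were seen. The groups did not overlap with L below S for 4 of 18 Tnf and NF-kB feedback genes (median -0.14) and for 4 of 12 interleukin 1 family genes (median -0.21), beside 6.48% of all genes tested. Of the 12 interleukin 1 family genes 4 had a log2 fold change above 0, and 0 members of either list were called.

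Neutrophil transcripts gave no call. Of 14 neutrophil genes tested 0 rose and 0 fell, with a median of 0.03, beside 0.0769% of all genes tested called in each direction. The summed CPM of all 17 genes of that list was 411 to 551 in L lungs and 414 to 581 in S lungs. S100a8, a calcium-binding protein abundant in neutrophils, had 36.04, 58.1 and 24.4 CPM in L lungs and 26.3, 38.03 and 40.7 CPM in S lungs. Retnlg, found in mature neutrophils, had 25.9, 36.4 and 30.9 CPM in L lungs and 9.74, 20.02 and 15.96 CPM in S lungs (1.04 ± 0.38, adjusted p = 0.599), with every L library above every S library. Acute-phase and mucosal defence genes (15 tested) gave 0 calls either way (median -0.12).

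Fos (ENSMUSG00000021250, chr12:85473890-85477273), a transcription factor induced rapidly by stimulation, fell in L against S lungs. It had 35.2, 43.1 and 69.2 CPM in L lungs, against 164, 155 and 155 CPM in S lungs, 116.4, 91.9 and 92.5 CPM in US lungs and 71.1, 73.3 and 108.8 CPM in D lungs. It was 3.17-fold lower in L lungs (-1.66 ± 0.30, adjusted p = 0.00738). The S libraries lay above all US and D libraries and the L libraries below all of them, so the US and D values stood between the groups. Without L replicate 1 or 2 the call was lost (adjusted p up to 0.137).

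Of 20 immediate early genes 0 rose and 1 fell, with a median of -0.28, and the groups did not overlap for 4 with L below S (6.48% of all genes tested). Jun, the partner of Fos, had 119.2, 154 and 137 CPM in L lungs and 229.6, 287 and 256 CPM in S lungs (-0.89 ± 0.25, adjusted p = 0.303). Atf3, a stress-induced member of the same class, had 19.2, 13.5 and 19.5 CPM in L lungs and 47.03, 34.7 and 36.7 CPM in S lungs (-1.15 ± 0.29, adjusted p = 0.152). Fosb had 2.94, 3.36 and 4.33 CPM in L lungs and 13.5, 6.22 and 5.95 CPM in S lungs (-1.23 ± 0.34, adjusted p = 0.246). Egr1, Junb and Nr4a1, which are induced by similar stimuli, overlapped between the groups.

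The inducible heat shock genes gave a wide gap without a call. Hspa1b had 3.09, 3.62 and 6.21 CPM in L lungs and 72.3, 18.2 and 56.8 CPM in S lungs (-3.48 ± 0.79, adjusted p = 0.0745), and its near-identical neighbour Hspa1a 3.75, 5.09 and 10.7 CPM in L lungs and 93.2, 21.9 and 68.8 CPM in S lungs (-3.21 ± 0.87, adjusted p = 0.241). Reads of this pair may be split between the copies. S replicate 2 was the lowest S library for both and still stood above all L libraries. Of 18 heat shock chaperone genes 0 rose and 0 fell (median -0.03). The groups did not overlap for 0 of them with L above S and for 6 with L below S, beside 4.66% and 6.48% of all genes tested. Hspa8, a constitutive member, overlapped, at 948, 1027 and 805 CPM in L lungs and 998, 832 and 924 CPM in S lungs.

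The remaining 14 called genes are on none of the lists, and 10 of them were also called in US against D, the same way. In that comparison 2.09% of all genes tested were called. Of those that rose, Tex11, a meiosis gene of the X chromosome, had 10.9, 9.87 and 7.49 CPM in L lungs, against 3.23, 3.65 and 4.78 CPM in S lungs (1.32 ± 0.22, adjusted p = 0.00257). Tspan4, a tetraspanin of migrating cells, had 85.9, 88.03 and 76.96 CPM in L lungs, against 37.6, 43.2 and 38.6 CPM in S lungs (1.10 ± 0.24, adjusted p = 0.0492), and it overlaps Chid1 on the opposite strand. Smaller rises were those of Cys1, a ciliary membrane protein (0.80 ± 0.16), Zfp346, a binder of double-stranded RNA (0.70 ± 0.15), and Sspn, a member of the dystrophin complex (0.47 ± 0.10). Adjusted p for these 3 was 0.0311, 0.0363 and 0.048. With any 1 of the 6 libraries left out, Tspan4, Zfp346 and Sspn were not called, and Cys1 was lost without L replicate 1 or 2 or S replicate 1 or 2 (adjusted p up to 0.207). Tex11 was called with each library left out.

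Of those that fell, Avpr1a, a vasopressin receptor, had 0.963, 0.840 and 0.963 CPM in L lungs, against 3.03, 3.34 and 4.06 CPM in S lungs (-1.88 ± 0.31, adjusted p = 0.00257). Spon2, a secreted matrix protein, had 18.1, 18.5 and 21.1 CPM in L lungs, against 73.7, 64.5 and 59.8 CPM in S lungs (-1.75 ± 0.37, adjusted p = 0.0442). Rasl11a, a Ras-like small GTPase, had 9.28, 8.61 and 10.2 CPM in L lungs, against 26.3, 24.5 and 26.8 CPM in S lungs (-1.44 ± 0.25, adjusted p = 0.00441). All 3 also fell in US against D lungs, with log2 fold changes of -2.38 ± 0.34, -2.04 ± 0.38 and -1.73 ± 0.25. Leo1, a subunit of the PAF1 complex that accompanies RNA polymerase II, had 12.5, 12.7 and 10.97 CPM in L lungs, against 22.2, 20.4 and 20.1 CPM in S lungs (-0.76 ± 0.13, adjusted p = 0.00441). The other 5 that fell were Tmem171 (-1.31 ± 0.27), 5430416O09Rik (-0.88 ± 0.18), named Spaar in the gene-name table, Iyd (-0.86 ± 0.18), an iodotyrosine deiodinase, Glipr2 (-0.57 ± 0.11) and Trim3 (-0.51 ± 0.11), a ubiquitin ligase. These 5 had adjusted p between 0.0184 and 0.0481. With any 1 of the 6 libraries left out, Spon2, Tmem171 and Trim3 were not called. Rasl11a was lost without L replicate 2 (adjusted p = 0.0537) and Leo1 without L replicate 3 (adjusted p = 0.0543). Iyd, 5430416O09Rik and Glipr2 were each lost without 4 of the 6 libraries in turn, L replicate 2 and S replicate 3 among them, with adjusted p up to 0.363, 0.329 and 0.213. Avpr1a was called with each library left out.

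Cell type and tissue lists held no other call. Of 25 T and NK cell genes 0 rose and 0 fell, with a median of 0.24, and the groups did not overlap for 9 with L above S, among them Cd3e at 8.36, 7.93 and 9.69 CPM in L lungs and 6.05, 6.39 and 5.50 CPM in S lungs (0.56 ± 0.29, adjusted p = 0.757). Of 35 motile cilium genes 0 rose and 0 fell, with a median of -0.28, and the groups did not overlap for 13 with L below S, among them Mcidas, a driver of multiciliated cell fate, at 1.42, 0.945 and 1.18 CPM in L lungs and 1.64, 3.57 and 3.02 CPM in S lungs (-1.21 ± 0.36, adjusted p = 0.356). Foxj1, the master regulator of motile cilia, overlapped, at 58.9, 54.7 and 48.5 CPM in L lungs and 55.8, 89.4 and 104.3 CPM in S lungs. Among all genes tested, 4.66% lay above and 6.48% below without overlap, and 0.0769% were called in each direction. Surfactant and alveolar type 2 genes had a median of -0.11, endothelial genes 0.13, collagen and matrix genes 0.06, interferon-stimulated genes -0.01 and cell division genes -0.24, with 0 members called in each.

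The same 2 materials were compared at days 1 and 28, each from other libraries. At day 1 L minus S gave 0 called genes with edgeR, beside 1759 at an unadjusted p under 0.05, and at day 28 it gave 11, all higher (0.0651%), beside 635 at an unadjusted p under 0.05. Of the 26 genes called at day 7, 13 had the same sign at day 1 and 23 had it at day 28, where 3 were larger in size. The matching shares of all genes were not counted. Mmp12 and Npy were called at both day 7 and day 28. The clock genes called at day 7 had the same sign at day 28 and were not called there. Those higher in L lungs ran from 0.57 ± 0.19 for Hlf to 2.17 ± 0.51 for Dbp at day 28. Arntl stood at -1.16 ± 0.27 and Npas2 at -1.10 ± 0.29. Mmp12 had 407, 113.2 and 287 CPM in L lungs of day 28, against 10.9, 11.1 and 10.6 CPM in S lungs (4.62 ± 0.48, adjusted p = 2.02e-06). At day 1 it had 14.3, 21.9 and 5.79 CPM in L lungs and 6.01, 9.65 and 11.7 CPM in S lungs, and the groups overlapped. Gpnmb, not called at day 7, had 774, 227 and 630.2 CPM in L lungs of day 28, against 49.3, 38.8 and 46.1 CPM in S lungs (3.59 ± 0.47, adjusted p = 0.000168), and Trem2 51.5, 19.2 and 45.00 CPM in L lungs, against 10.2, 5.87 and 7.11 CPM in S lungs (2.30 ± 0.34, adjusted p = 0.000713).

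Whether the size difference itself changed between days was tested as an interaction over all 16903 genes. Between day 7 and day 28, 0 genes passed with edgeR (819 at an unadjusted p under 0.05) and 0 with DESeq2. The smallest adjusted p was 0.441, shared by 7 genes. Given as the day 7 minus the day 28 difference, they were Gpnmb (-3.02 ± 0.62), Trem2 (-2.01 ± 0.47), Ccna1 (-1.995 ± 0.466), Atf3 (-1.77 ± 0.41), Hlf (1.15 ± 0.26), Hmgn5 (0.60 ± 0.14) and Stxbp6 (0.57 ± 0.12). The call of Gpnmb and Trem2 at day 28 and its lack at day 7 is therefore not shown to be a difference between the days. Without L day 28 replicate 2 the count was 6 and without L day 7 replicate 1 it was 2. Between day 7 and day 1, 5 genes passed (0.0296%), 3 with a higher (0.0177%) and 2 with a lower difference at day 7 (0.0118%), beside 1415 at an unadjusted p under 0.05. They were Hlf (1.88 ± 0.26, adjusted p = 0.000814), Fos (-2.86 ± 0.43, adjusted p = 0.00186), Tef (1.36 ± 0.25, adjusted p = 0.0348), Npas2 (-2.38 ± 0.45) and Per3 (1.54 ± 0.30), the last 2 at an adjusted p of 0.0493. At day 1 Hlf had 46.2, 41.04 and 44.7 CPM in L lungs and 65.1, 43.3 and 38.8 CPM in S lungs, and the groups overlapped. Fos had 73.8, 129.5 and 116.02 CPM in L lungs of day 1 and 53.1, 40.2 and 45.6 CPM in S lungs, on the opposite side to day 7. Hlf and Fos passed with each library left out, whereas Tef, Npas2 and Per3 did not without L day 1 replicate 1 or 2, L day 7 replicate 2 or 3, S day 1 replicate 1 or 2, or any S day 7 library. Npas2 also did not pass without L day 7 replicate 1, nor Per3 without S day 1 replicate 3.

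**Figure D5:**
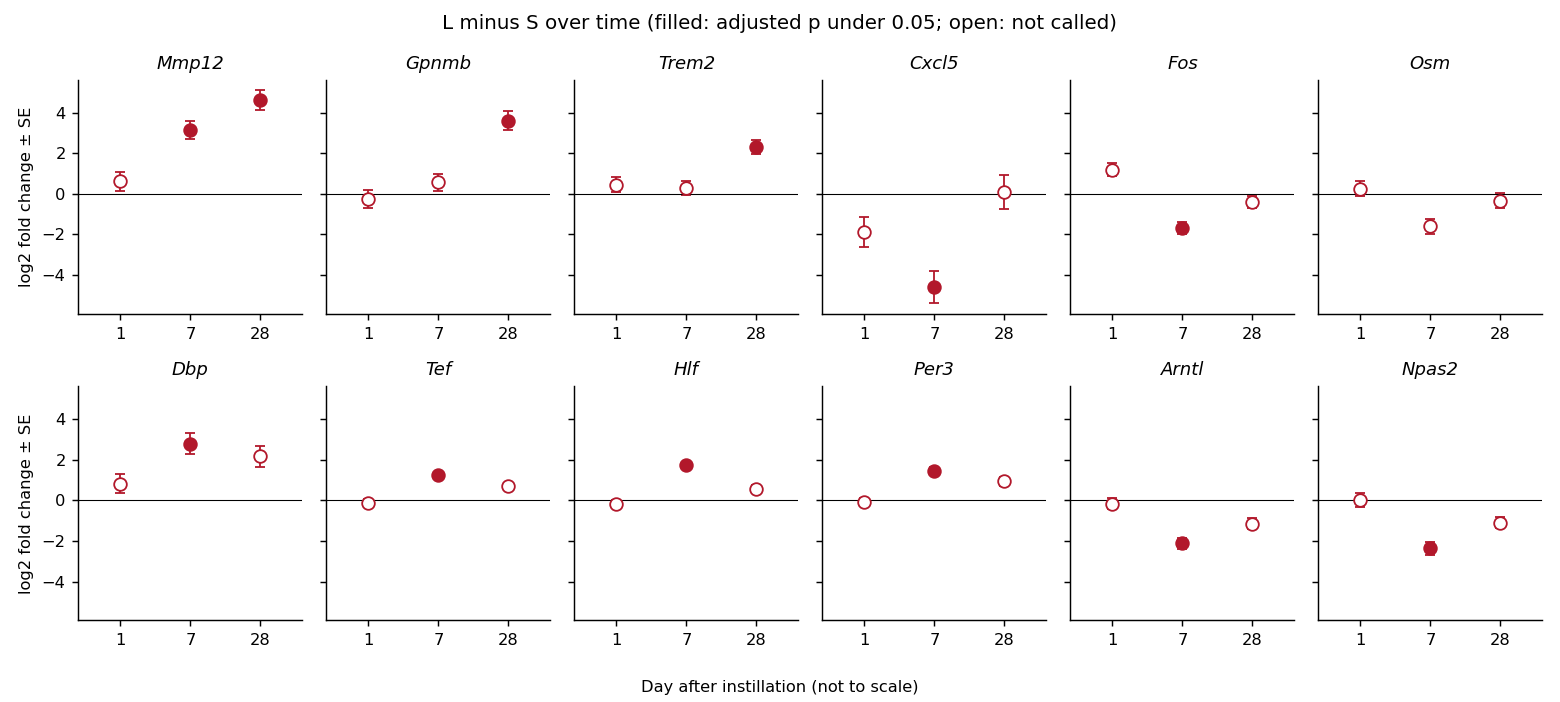
Log2 fold change ± SE of L minus S on the y axis at days 1, 7 and 28 on the x axis for 12 genes, filled where the adjusted p was under 0.05. The 6 clock genes lie farthest from 0 at day 7, Mmp12, Gpnmb and Trem2 at day 28, and Cxcl5 and Fos lie below 0 at day 7, at -4.59 and -1.66, and nearer to 0 at day 28. No gene passed the interaction test between day 7 and day 28.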

How the data were processed

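RNA of 36 mouse lung samples was sequenced from stranded, polyadenylated libraries, 3 for each of 12 groups (L, S, US and D at days 1, 7 and 28). The authors deposited whole read counts for 46078 Ensembl genes and TPM values (abundance scaled to 1 total per library) per the file headers, and FPKM and coverage in the same tables were not used. Per the submitters' processing notes the tools were bcl2fastq 2.19.1.403, CASAVA, STAR 2.5.1b, featureCounts 1.5.1 and StringTie 1.3.3, with builds GRCh37 and GRCm38 named without roles. Positions in the deposited tables are those of GRCm38. Neither the strand setting used in counting nor the annotation's release is given in the sources used here, which leaves reads of overlapping or near-identical genes uncertain.

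Counts as deposited were filtered with filterByExpr (16903 genes left), scaled by TMM (factors 0.932 to 1.06) and fitted with edgeR 4.0.16 under R 4.3.3 over all 36 libraries with 1 mean per group. The two-sided quasi-likelihood F test gave p-values. These were Benjamini-Hochberg adjusted across the 16903 genes and called under 0.05. The SE of a log2 fold change is its size over the square root of F. CPM is the count per 1e+06 reads of the library total, without TMM factors. The fit was tested on simulated data. Library totals were 16154696 to 23808264 in 35 libraries, so 1 CPM rests on few counts and low genes are less certain. No 2 libraries of the same group, L or S at day 7, agreed within sampling noise.

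The comparisons, members and gene lists were chosen with earlier results of these data known. Named genes were called genes with a proper symbol, at least 1 CPM and no overlap (up to 12 each way), up to 3 called members of each list, fixed anchor genes of the lists and the called interactions. Ibsp, Npy, 5430416O09Rik, Osm, Ccl20, Atf3, Fosb, Junb, Nr4a1, Hspa8, Zbtb16 and the clock genes that are neither called nor anchors lie outside that rule and were picked after their values were seen. Alternatives were RLE scaling, no filter, the replicate number as a block, DESeq2 1.42.0, only the groups compared, limma 3.58.1 on log2(TPM + 1), S day 7 replicate 2 thinned to the median depth, and each library left out. Promoter windows came from RefSeq (GRCm38.p6).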

Additional observations from a re-analysis of the deposited data

Results flagged for a closer look

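The difference between L and S lungs was itself different at day 7 and day 1 for 5 genes by the interaction term of edgeR's quasi-likelihood fit, given as the day 7 minus the day 1 difference on the log2 scale. Hlf stood at 1.88, Tef at 1.36 and Per3 at 1.54, while Fos stood at -2.86 and Npas2 at -2.38. All 5 were also called at day 7 alone, and none was called at day 1, where L minus S gave 0 calls with edgeR. The groups of 3 libraries were too small for a search for single libraries far from the others.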

How the results depend on the processing

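The count of 26 calls for L minus S at day 7 was 57 with DESeq2 and 13 to 26 with each library left out, and it stayed within 1.5 times of 26 under the other alternatives run. Of the 26, 6 genes passed under every alternative, namely Mmp12, Hlf, Per3, Avpr1a, Arntl and Npas2. The interaction of day 7 with day 1 (5 calls) gave 11 calls without the filter on low counts, 29 with DESeq2, 8 with only the groups compared, 2 with limma on log2(TPM + 1) and 2 to 6 with each library left out. That of day 7 with day 28 (0 calls) gave 1 without the filter and 0 to 6 with each library left out. On log2(TPM + 1) 8 of the 26 calls were lost: Ibsp and Npy, which were not tested there, and Iyd, Zfp346, Sspn, Trim3, Tef (1.12 in place of 1.23, adjusted p = 0.647) and Cys1 (0.24 in place of 0.80, adjusted p = 0.962). No value changed sign among called results, and the causes were not tested.

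Replicate numbers did not pair the L and S libraries: deviations of same-numbered libraries correlated at -0.304, 0.0605 and -0.257. The replicate block gave 21 calls in place of 26 and 4 in place of 5. Depth limits genes near 1 CPM, Npy and Ibsp above all.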

Other observations

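Some of the genes that came near the threshold without passing are given here, picked after their values were seen and not by rank. They included Galnt3, which starts mucin-type sugar chains, with a log2 fold change of -0.63 (adjusted p = 0.0686), and Dgat2, the last enzyme of triglyceride synthesis. Dgat2 had 17.3, 19.1 and 16.8 CPM in L lungs, against 10.4, 8.17 and 10.3 CPM in S lungs, a log2 fold change of 0.92 ± 0.21 (SE, n = 3 each, edgeR adjusted p = 0.0815), so the groups did not overlap. Rere, a nuclear receptor corepressor, stood at 0.50 (adjusted p = 0.0839) and Adm, the vasodilator peptide adrenomedullin, at -1.57 (adjusted p = 0.114).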
